A study of Mus musculus with 6 samples.

Results

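The proteasome subunit genes described here are the genes whose symbol is Psma, Psmb, Psmc or Psmd followed by a number, leaving out the 3 immunoproteasome subunits Psmb8, Psmb9 and Psmb10. The rule found 36 of the 24147 genes in the deposited tables. It holds every alpha and beta subunit of the standard 20S core, the 6 ATPases of the 19S particle and most of its other subunits, and also 3 assembly chaperones (Psmd5, Psmd9 and Psmd10) and 2 tissue-restricted subunits, Psma8 of the testis and Psmb11 of the thymus cortex. Of the 36, 35 had enough counts to be tested. Psma8 was the exception, with 1, 3 and 0 counts at 0 h and 1, 6 and 0 counts at 24 h. Psmb11 was tested but stood near the floor, with at most 2.30 CPM (counts scaled to a common library total) in any library.

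RNA was sequenced from lens capsules with the attached lens epithelial cells of wild-type C57BL/6 mice 2 months old, whose fiber cells were removed by way of a corneal incision to model cataract surgery. There were 3 libraries from tissue collected at 0 h, directly after the operation, and 3 from tissue collected 24 h later. The series speaks of biological triplicates but does not say how many animals went into a library, so p-values measure the spread between these libraries. Both groups had the operation, and unoperated lenses were not analysed here.

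The proteasome is the protease that degrades proteins tagged with ubiquitin. Its 20S core is a barrel in which 2 outer rings of alpha subunits gate the entrance and 2 inner rings of beta subunits carry the active sites. The 19S particle caps the barrel: a lid and ubiquitin receptors bind the substrate and strip its ubiquitin, and a ring of ATPases unfolds it and threads it into the core. Standard subunits are needed in near-equal number, and their genes are known to rise together through the transcription factor NRF1 (Nfe2l1) when proteasome activity falls short. In the lens, the ubiquitin-proteasome pathway is known from both the epithelium and the differentiating fibers.

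Promoter sequences were looked at first, because NRF1 and its relative NRF2 bind sites of the antioxidant response element type. RefSeq promoters (GRCm38.p6, 250 bases before to 50 after the start) were matched for 29 of the 36 genes, giving 31 promoters. The core letters TGACNNNGC, searched on both strands, were found in 5 of the 31 promoters (16.1%), beside 12.4% of all 32851 promoters of the same length. The CCAAT box, another element common in promoters, was found on either strand in 12 of the 31 (38.7%), beside 37.4% of all promoters. The 5 matches are printed with up to 8 bases on each side, 5′ to 3′ on the strand of the match, with the 9 letters of the match in capitals. They lay 43 bases upstream of the start in Psmb5 (chr14:54618026-54618050, minus strand), 5 in Psmb6 (chr11:70525340-70525364, plus), 223 in Psmc6 (chr14:45329589-45329613, minus), 243 in Psmd12 (chr11:107479278-107479297, minus) and 27 in Psmd9 (chr5:123228151-123228175, plus).
Psmb5: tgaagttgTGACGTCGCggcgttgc
Psmb6: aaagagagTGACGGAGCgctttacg
Psmc6: gcaatgccTGACTTAGCtactggct
Psmd12: ggcaaatgTGACACAGCaga
Psmd9: ctagccggTGACCCCGCccacttcc
Of these 5 genes, 1 (Psmd12) was called higher at 24 h in the comparison described next, and their median log2 fold change was 0.39. Of the 24 genes with a matched promoter and no such letters, 10 were called and the median was 0.45. A match describes these letters and is not a mapped site.

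Psmd14 and Psmb5, which differed in outcome, are shown with the 250 bases before their start. Psmd14, the deubiquitinase of the lid, had the largest rise of all members (chr2:61711444-61711693, plus strand, 66.8% G and C). The CCAAT box within its shown bases, in reverse orientation, is in capitals. Further CCAAT matches of Psmd14 were centred 7 and 10 bases downstream of the start, outside the bases shown. Psmb5, a catalytic subunit, did not pass the test (chr14:54617996-54618245, minus strand, 49.6% G and C, with the match printed before in capitals).
Psmd14: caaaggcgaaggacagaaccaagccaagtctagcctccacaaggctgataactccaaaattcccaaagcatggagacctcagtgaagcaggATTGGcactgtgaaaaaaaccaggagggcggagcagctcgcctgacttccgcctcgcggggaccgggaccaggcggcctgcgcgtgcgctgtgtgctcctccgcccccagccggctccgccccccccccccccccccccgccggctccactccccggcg
Psmb5: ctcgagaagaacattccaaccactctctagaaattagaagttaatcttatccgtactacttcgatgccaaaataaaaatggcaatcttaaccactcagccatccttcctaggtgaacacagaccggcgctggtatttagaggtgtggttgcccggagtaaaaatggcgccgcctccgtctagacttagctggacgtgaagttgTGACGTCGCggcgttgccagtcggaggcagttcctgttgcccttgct

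Across the subunit genes, RNA was modestly higher 24 h after surgery. By edgeR's quasi-likelihood test, 14 of the 35 tested genes (40.0%) were called higher at an adjusted p under 0.05, where 15.2% of all 13956 genes tested were called higher and 28.2% in either direction. None was called lower (13% of all genes), none was lower at an unadjusted p under 0.05, and DESeq2 and limma-voom also called 0 lower. The fitted change was above 0 in 34 of the 35 genes, against 48.3% of all genes, and Psmc5 was the exception. The median log2 fold change was 0.44 (1.36-fold), with a range from -0.19 to 0.99, beside a median of -0.03 over all genes. In 20 of the 35 genes every 24 h library lay above every 0 h library (22.9% of all genes), and in 0 every 24 h library lay below (21.8% of all genes). Called folds ran from 1.38 to 1.98, and the intervals of the 2 largest, Psmd14 and Psma5, both reached 2.47. With library totals only, their log2 fold changes were 1.08 and 1.02, just above 2-fold. The standard error of a member's log2 fold change had a median of 0.165, beside 0.226 over all genes. Without Psmb11, group means ran from 10.3 to 172 CPM at 0 h and from 13.5 to 258 CPM at 24 h.

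The subunit genes together took 0.1998%, 0.167% and 0.167% of all gene counts in the 0 h libraries (replicate order kept here and hereafter) and 0.231%, 0.267% and 0.268% in the 24 h libraries. All 24 h libraries were above all 0 h libraries, and the means of 0.178% ± 0.0190 and 0.255% ± 0.0212 (SD, n = 3) stand in a ratio of 1.44. In CPM scaled by TMM, which corrects for a few very abundant genes, the sums were 2174, 1569 and 1781 at 0 h and 2382, 2446 and 2618 at 24 h. These sums also did not overlap, with 1841 ± 307 and 2482 ± 122 CPM (SD, n = 3) and a ratio of 1.35. Bulk tissue was measured, so a change in the number of cells of a type and a change in RNA per cell cannot be told apart.

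**Figure D1:**
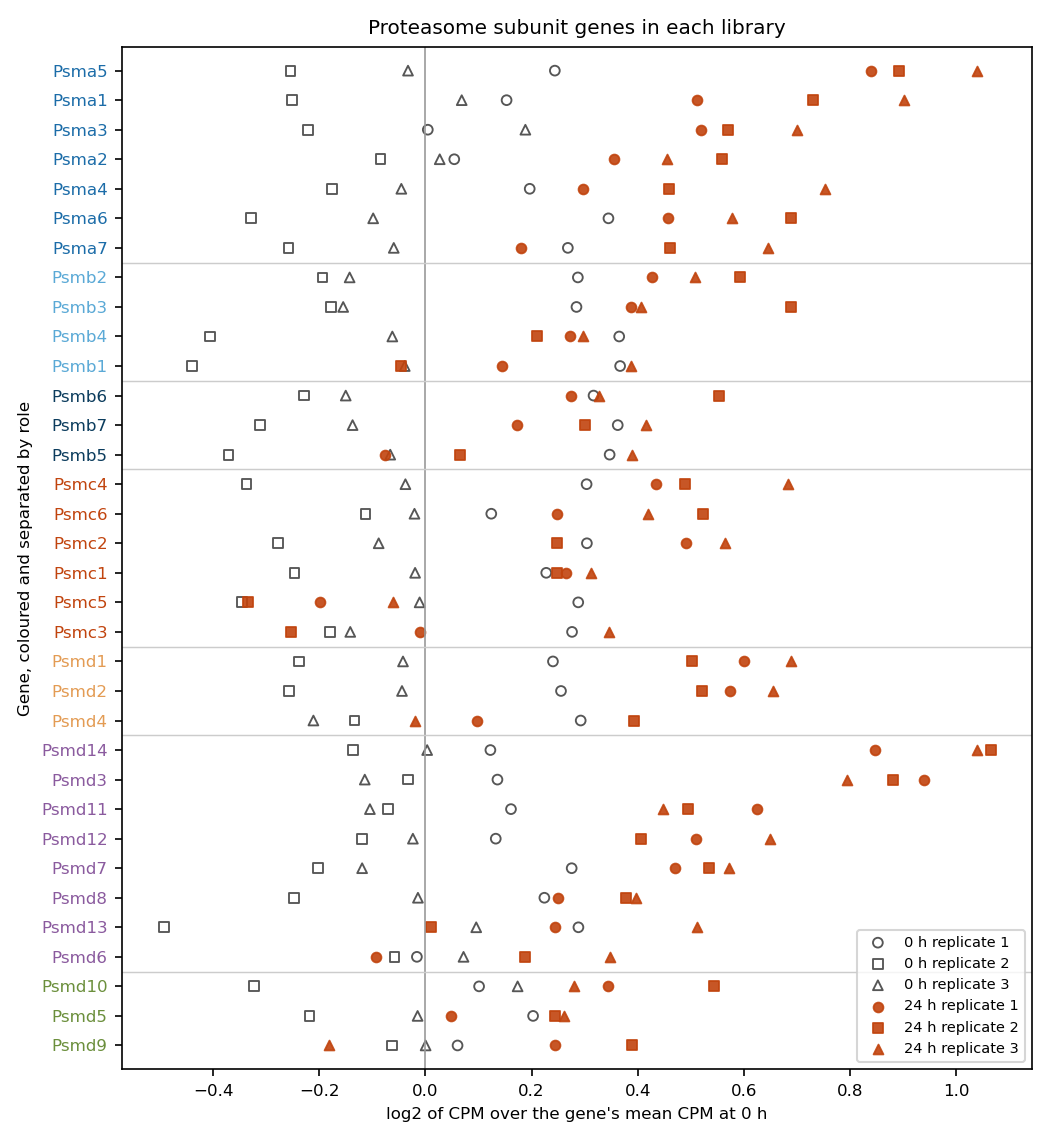
Level of each tested proteasome subunit gene other than Psmb11 in the 6 libraries, as log2 of CPM over the gene's mean at 0 h. Genes are ordered by their place in the complex. Replicate 1 is the highest of the 0 h libraries in most rows and replicate 2 the lowest, and the 24 h libraries stand above them in 20 genes.

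The 0 h libraries did not lie at one level. Among the 34 tested members other than Psmb11, 0 h replicate 1 was the highest 0 h library in 31 genes (35.2% of all genes) and 0 h replicate 2 the lowest in 31 (37.8% of all genes). At 24 h the highest library was replicate 3 in 22 genes, replicate 2 in 10 and replicate 1 in 2. This shared offset bears on every count given here. Without 0 h replicate 1, 22 members were called higher (62.9%, beside 13.1% of all genes). Without 0 h replicate 2 only 4 were called (11.4%, beside 10.9% of all genes), and without 0 h replicate 3 only 5 (14.3%, beside 11.7%), shares near the background. Without 24 h replicate 1, 11 were called (31.4%, beside 13.1%), without 24 h replicate 2, 8 (22.9%, beside 12.6%), and without 24 h replicate 3, 6 (17.1%, beside 13.3%), the last also not far from the background. The median log2 fold change of the members stayed between 0.34 and 0.61 in these 6 fits, and each of the 6 called 0 members lower, where 9.04%, 9.44%, 7.26%, 9.36%, 9.81% and 11.5% of all genes were. The 4 genes called in all 6 were Psmd14, Psmd3, Psma5 and Psma1. Against a fold of 1.5 rather than no change, only Psmd14 passed (adjusted p = 0.0222), or 2.86% of members, beside 7.6% of all genes higher and 4.51% lower. Without the filter on low counts 15 of 36 members were higher (41.7%, beside 11.5% of all genes) and 0 lower (9.52%).

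**Figure D2:**
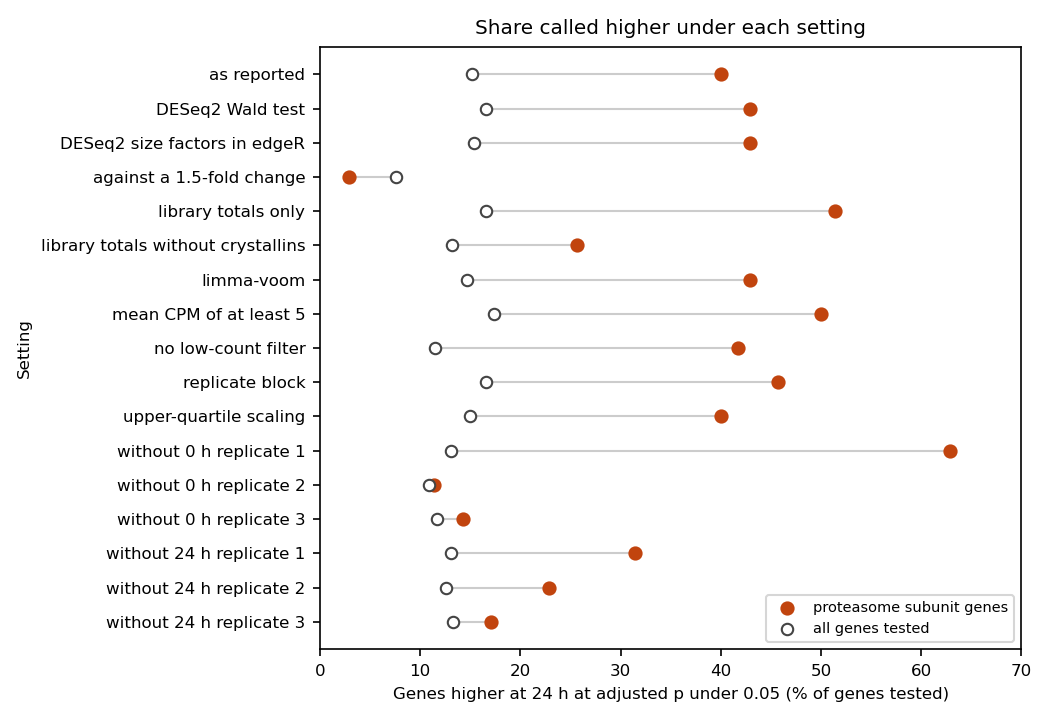
Share of proteasome subunit genes and share of all tested genes that were called higher at 24 h, in percent, under the main analysis and 16 alternatives. The member share is 40.0% in the main analysis and ranges from 2.86% to 62.9%, and the 2 shares come close together when 0 h replicate 2, 0 h replicate 3 or 24 h replicate 3 is left out.

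Of the 7 tested subunits of the alpha ring, 6 rose (15.2% of all genes were called higher), with a median log2 fold change of 0.58. In those 6 all 24 h libraries lay above all 0 h libraries (22.9% of all genes). Psma5 (chr3:108256926-108279952) stood at 29.9, 21.1 and 24.6 CPM at 0 h and 45.1, 46.8 and 51.8 CPM at 24 h. The 24 h values lay well above and close to each other, and the fold was 1.90 (95% interval 1.46 to 2.47, log2 0.93 ± 0.17 SE, edgeR adjusted p = 0.00401). Psma1 (chr7:114264550-114276116) had 47.1, 35.6 and 44.4 CPM at 0 h and 60.4, 70.3 and 79.2 CPM at 24 h, again without overlap. Its fold was 1.65 (1.28 to 2.13, log2 0.72 ± 0.16, adjusted p = 0.011).

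Psma3, Psma2, Psma4 and Psma6 are the other alpha subunits that rose, by 1.51-fold, 1.38-fold, 1.43-fold and 1.49-fold (adjusted p = 0.0152, 0.0286, 0.0448 and 0.0453). Psma3 lost its call without 0 h replicate 2 (adjusted p = 0.0552). Psma2 and Psma4 lost theirs without replicate 2 or 3 of either time (adjusted p = 0.0661 to 0.0963 for Psma2 and 0.0759 to 0.144 for Psma4). Psma6 kept its call only when 0 h replicate 1 was the library left out (0.0554 to 0.135 in the other 5 fits). The gene Psma3 overlaps 3110056K07Rik on the other strand over 3309 bases. That gene had 269 counts at 0 h and 178 at 24 h, against the direction of Psma3, and the sources used here do not say whether counting used strand. Psma7 was not called: 40.0, 27.8 and 31.8 CPM at 0 h overlapped 37.6, 45.7 and 51.9 CPM at 24 h, with a fold of 1.36 (1.01 to 1.82, adjusted p = 0.111).

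Among the structural beta subunits, which shape the inner rings without a standard active site, 1 of 4 rose (15.2% of all genes). Their median log2 fold change was 0.38. Psmb2 (chr4:126677643-126709715) had 57.2, 41.0 and 42.5 CPM at 0 h and 63.0, 70.7 and 66.7 CPM at 24 h. The 24 h libraries were all higher, by 1.42-fold (1.11 to 1.83, adjusted p = 0.0419), but the call held only when 0 h replicate 1 was the library left out (adjusted p = 0.0576 to 0.136 in the other 5 fits). Psmb3 had 44.2, 32.1 and 32.6 CPM at 0 h and 47.4, 58.5 and 48.1 CPM at 24 h. Its groups did not overlap either, at 1.42-fold (1.08 to 1.86), yet its adjusted p of 0.0599 missed the threshold. Among the fits with 1 library left out, it passed only without 0 h replicate 1 (0.0230). It also passed with library totals only (0.0394) and with a filter on a mean CPM of at least 5 (0.0478).

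The remaining structural beta subunits overlapped between the times. Psmb4 stood at 68.4, 40.1 and 50.9 CPM at 0 h and 64.2, 61.5 and 65.2 CPM at 24 h (1.20-fold, 0.886 to 1.62, adjusted p = 0.352, and 0.0492 without 0 h replicate 1). Psmb1 stood at 77.0, 44.0 and 58.1 CPM at 0 h and 66.0, 57.8 and 78.0 CPM at 24 h (1.13-fold, 0.806 to 1.58, adjusted p = 0.591). In both genes 0 h replicate 1 was higher than at least 1 of the 24 h libraries.

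The catalytic beta subunits carry the proteolytic sites, and edgeR called 0 of 4 in either direction (28.2% of all genes). In edgeR 0 had an unadjusted p under 0.05, DESeq2 and limma-voom called 0, and the median log2 fold change was 0.22. Psmb6, the caspase-like subunit, had 50.6, 34.7 and 36.6 CPM at 0 h and 49.1, 59.6 and 51.0 CPM at 24 h, with a fold of 1.31 (0.991 to 1.73, adjusted p = 0.137). Psmb7, the trypsin-like subunit, had 61.4, 38.5 and 43.4 CPM at 0 h and 53.8, 58.8 and 63.8 CPM at 24 h (1.23-fold, 0.916 to 1.65, adjusted p = 0.274). Without 0 h replicate 1 both passed, with adjusted p = 0.0305 for Psmb6 and 0.0366 for Psmb7. Psmb5, the chymotrypsin-like subunit and the main target of proteasome inhibitors, had 33.97, 20.6 and 25.5 CPM at 0 h and 25.3, 27.9 and 35.0 CPM at 24 h. The 2 ranges nearly coincide, at 1.10-fold (0.780 to 1.56, adjusted p = 0.678), and the interval reaches past the folds of most alpha subunits. Psmb11, the thymic subunit, was at 0.701, 2.30 and 1.46 CPM at 0 h and 1.53, 1.81 and 1.27 CPM at 24 h (1.03-fold, 0.420 to 2.53, adjusted p = 0.966).

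The 6 ATPases form the ring that unfolds substrates, and edgeR called 0 of the 6 in either direction (28.2% of all genes). In edgeR 3 had an unadjusted p under 0.05, and the median log2 fold change was 0.34. DESeq2 and limma-voom each called 1 of the 6 ATPases, Psmc4, higher (adjusted p = 0.0348 and 0.0449). Psmc4 had 73.7, 47.3 and 58.2 CPM at 0 h and 80.7, 83.9 and 96.0 CPM at 24 h, with no overlap and a fold of 1.45 (1.10 to 1.92, adjusted p = 0.0509). Psmc6 had 52.2, 44.3 and 47.2 CPM at 0 h and 56.9, 68.8 and 64.1 CPM at 24 h, again with no overlap, at 1.32-fold (1.07 to 1.63, adjusted p = 0.0555). Both lie just beyond the threshold. Psmc4 passed it without 0 h replicate 1 (adjusted p = 0.0177), and Psmc6 without 0 h replicate 1 or without 24 h replicate 1 (0.0497 and 0.0477). Psmc2 stood at 61.8, 41.3 and 47.1 CPM at 0 h and 70.3, 59.5 and 74.0 CPM at 24 h (1.36-fold, 1.03 to 1.79, adjusted p = 0.0963, and 0.0269 without 0 h replicate 1). Psmc1 stood at 94.0, 67.6 and 79.2 CPM at 0 h and 96.4, 95.3 and 99.7 CPM at 24 h, where the groups did not overlap but the fold was only 1.21 (0.960 to 1.53, adjusted p = 0.202).

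Psmc5 was the only member with a fitted change below 0. It had 121, 78.3 and 98.7 CPM at 0 h and 86.7, 78.9 and 95.4 CPM at 24 h, all 24 h values falling inside the range of the 0 h libraries, and a log2 fold change of -0.19 ± 0.18 (adjusted p = 0.458). Without 0 h replicate 1 this value was 0.0081, so its sign rests on that library. Psmc3 had 110, 79.96 and 82.1 CPM at 0 h and 89.9, 76.0 and 115 CPM at 24 h, also overlapping (1.03-fold, 0.763 to 1.402, adjusted p = 0.88).

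Of the large base subunits, Psmd1 and Psmd2 are the scaffolds on which ubiquitin-binding proteins dock, and both rose. Psmd2 (chr16:20651652-20663414), the member with the highest CPM at both times, had 206, 144 and 167 CPM at 0 h and 256, 247 and 271 CPM at 24 h, a fold of 1.4998 (1.16 to 1.94, adjusted p = 0.028). Psmd1 (chr1:86064619-86139295) had 151, 108 and 124 CPM at 0 h and 193, 181 and 205 CPM at 24 h, a fold of 1.51 (1.18 to 1.94, adjusted p = 0.0224). In both, the 24 h libraries were close together and all above the 0 h libraries. Psmd1 lost its call without replicate 2 at 0 h or replicate 3 of either time (adjusted p = 0.0563 to 0.0785), and Psmd2 without replicate 2 or 3 of either time (0.05005 to 0.0947). Psmd1 overlaps Htr2b on the opposite strand, a gene with 24 counts at 0 h and 65 at 24 h. Psmd4, a ubiquitin receptor of the base, was not called, with 89.3, 66.4 and 63.0 CPM at 0 h and 78.0, 95.7 and 71.9 CPM at 24 h (1.12-fold, 0.849 to 1.49, adjusted p = 0.529).

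The lid held the largest change of any subunit. Psmd14 (chr2:61711694-61800376), the metalloprotease that cuts ubiquitin off the substrate at the mouth of the ATPase ring, had 32.9, 27.5 and 30.3 CPM at 0 h and 54.4, 63.2 and 62.1 CPM at 24 h. The groups were far apart relative to their spread, at 30.2 ± 2.71 and 59.9 ± 4.81 CPM (SD, n = 3), with a fold of 1.98 (1.59 to 2.47, log2 0.99 ± 0.14, edgeR adjusted p = 0.0013). Psmd3 (chr11:98682554-98695978), a structural lid subunit, had 72.8, 64.8 and 61.3 CPM at 0 h and 127, 122 and 115 CPM at 24 h. It had the second lowest p of all members, at 1.83-fold (1.496 to 2.24, log2 0.87 ± 0.13, adjusted p = 0.0016).

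Counting these, 5 of the 8 lid genes rose (15.2% of all genes were called higher), with a median log2 fold change of 0.52. Psmd11, Psmd12 and Psmd7, the last being the inactive partner of Psmd14, each rose by 1.44-fold (adjusted p = 0.0191, 0.0192 and 0.0353). Psmd11 lost its call without replicate 2 or 3 at 0 h or replicate 1 at 24 h (0.0527 to 0.0668), and Psmd12 without replicate 2 at 0 h or replicate 3 of either time (0.0550 to 0.0714). Psmd7 kept it only when 0 h replicate 1 was the library left out (0.0545 to 0.114 in the other 5 fits). Psmd8 had 94.0, 67.7 and 79.7 CPM at 0 h and 95.7, 105 and 106 CPM at 24 h, which did not overlap, at 1.27-fold (1.00 to 1.61, adjusted p = 0.123, and 0.0435 without 0 h replicate 1). Psmd13 had 53.4, 31.1 and 46.7 CPM at 0 h and 51.8, 44.1 and 62.4 CPM at 24 h, with overlap (1.21-fold, 0.854 to 1.70, adjusted p = 0.4). Psmd6 was the flattest of the lid genes, at 34.7, 33.7 and 36.8 CPM at 0 h and 32.9, 39.9 and 44.6 CPM at 24 h (1.12-fold, 0.876 to 1.42, adjusted p = 0.483).

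The 3 chaperones help to assemble the ATPase ring and are not part of the finished proteasome. By edgeR, DESeq2 and limma-voom 0 of the 3 were called, where edgeR called 28.2% of all genes in either direction. In edgeR 0 of the 3 had an unadjusted p under 0.05. Psmd10 (gankyrin) had 11.02, 8.22 and 11.6 CPM at 0 h and 13.0, 15.0 and 12.5 CPM at 24 h, where the groups did not overlap (1.31-fold, 0.921 to 1.88, adjusted p = 0.232). Psmd5 had 37.2, 27.8 and 32.0 CPM at 0 h and 33.4, 38.2 and 38.7 CPM at 24 h, with overlap (1.14-fold, 0.887 to 1.46, adjusted p = 0.422). Psmd9 was at 14.6, 13.4 and 14.03 CPM at 0 h and 16.6, 18.4 and 12.4 CPM at 24 h, with overlap (1.12-fold, 0.808 to 1.57, adjusted p = 0.593).

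**Figure D3:**
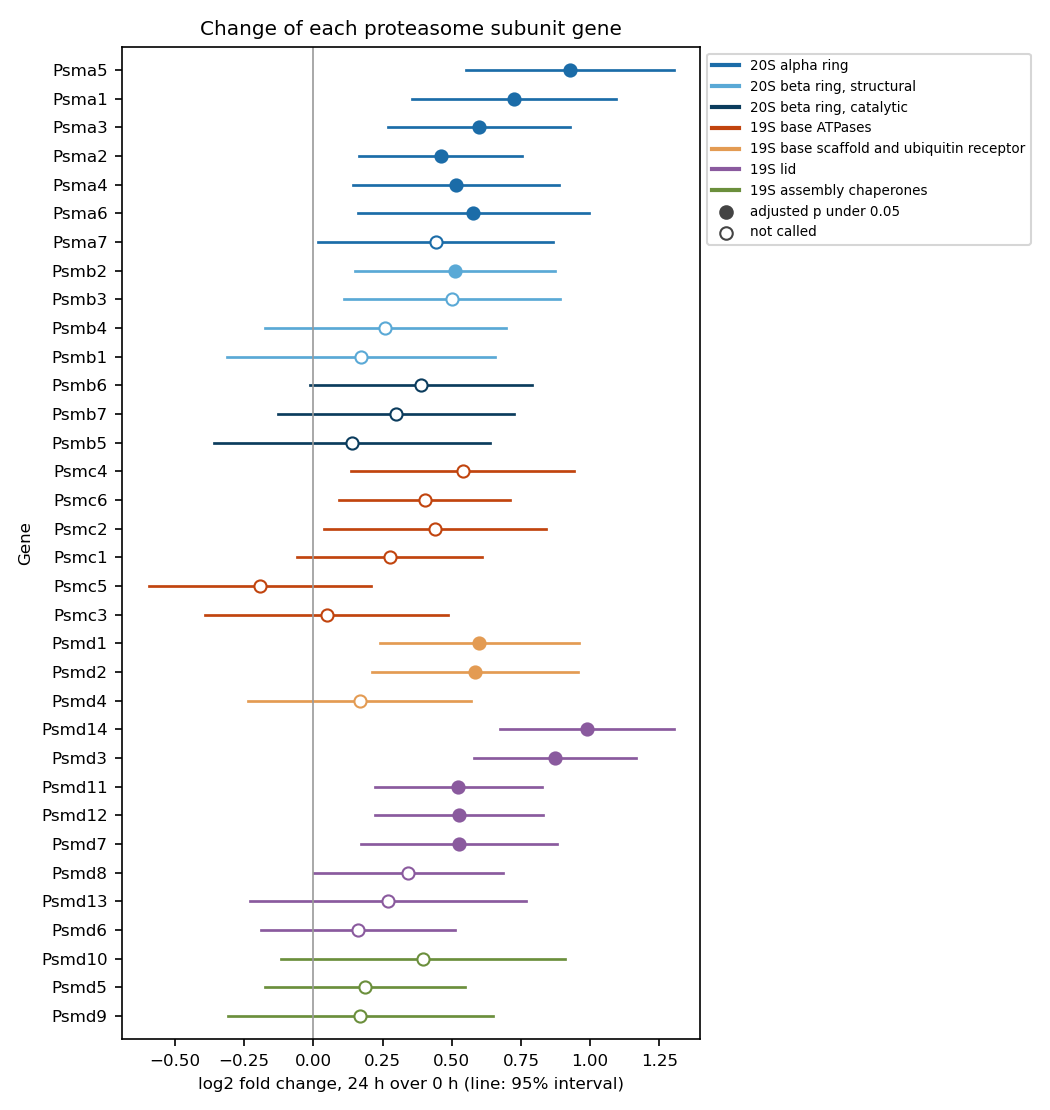
Fitted log2 fold change, 24 h over 0 h, of each tested proteasome subunit gene other than Psmb11, with its 95% interval. Genes are grouped by place in the complex. Filled points passed an edgeR adjusted p under 0.05, which 14 of the 34 genes shown did, and Psmc5 is the only point below 0.

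In numbers of calls the core (7 of 15) and the 19S particle without chaperones (7 of 17) were alike, beside 15.2% of all genes. Differences between the groups of subunits given above were not tested. Ratios of summed CPM within a library describe them without a test. The alpha ring over the ATPases was 0.619, 0.670 and 0.685 at 0 h and 0.793, 0.928 and 0.849 at 24 h, and the lid over the ATPases was 0.862, 0.972 and 0.928 at 0 h and 1.16, 1.22 and 1.08 at 24 h. Neither overlapped. The alpha ring over the catalytic subunits did not overlap either, at 2.16, 2.50 and 2.64 at 0 h and 2.94, 2.90 and 3.06 at 24 h. The structural beta subunits over the ATPases overlapped, at 0.481, 0.438 and 0.446 at 0 h and 0.5004, 0.537 and 0.474 at 24 h. The whole core over the 19S particle without chaperones overlapped too, at 0.508, 0.481 and 0.499 at 0 h and 0.480, 0.533 and 0.518 at 24 h. The ratio of Psmd14 to Psmc5, the members with the largest rise and the lowest fitted change, went from 0.309 ± 0.0402 to 0.693 ± 0.0943 (SD, n = 3). That pair was picked for its values.

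Levels can be compared between genes only per length, for which the deposited RPKM values were used. Over the 31 subunits of the standard particle (all members but the chaperones, Psma8 and Psmb11), the median was 42.5, 35.2 and 35.7 RPKM at 0 h and 53.3, 61.2 and 54.8 RPKM at 24 h. The levels lay within a few-fold of each other in every library, with the highest over the lowest at 4.46, 3.53 and 3.94 at 0 h and 3.55, 2.96 and 2.72 at 24 h. Their coefficient of variation across subunits was 38.6%, 33.2% and 34.3% at 0 h and 29.5%, 30.2% and 27.6% at 24 h, so the 24 h libraries were the more even, without overlap. At 0 h the lowest subunit was Psmd14 in 2 libraries and Psma5 in 1, and the highest was Psmc5 in all 3. At 24 h Psma7 was lowest in 2 and Psmd13 in 1, and Psmd2 highest in 2 and Psmb2 in 1.

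The genes with the 2 highest folds had the lowest mean levels of the particle at 0 h. Psmd14 went from a mean of 18.98 to 40.1 RPKM and Psma5 from 19.996 to 40.5 RPKM, while Psmc5 stood at 75.0 and 69.9 RPKM. Psma7 started at nearly the level of Psma5 but went only from 20.1 to 29.2 RPKM and was not called. Psmd2, by contrast, started high and rose, from 54.4 to 86.9 RPKM. A gene's own 0 h value enters both its level and its fold, so this order was not tested. The chaperones were below the subunits of the particle, with means at 0 h of 15.3 RPKM for Psmd5, 6.81 for Psmd10 and 5.26 for Psmd9.

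**Figure D4:**
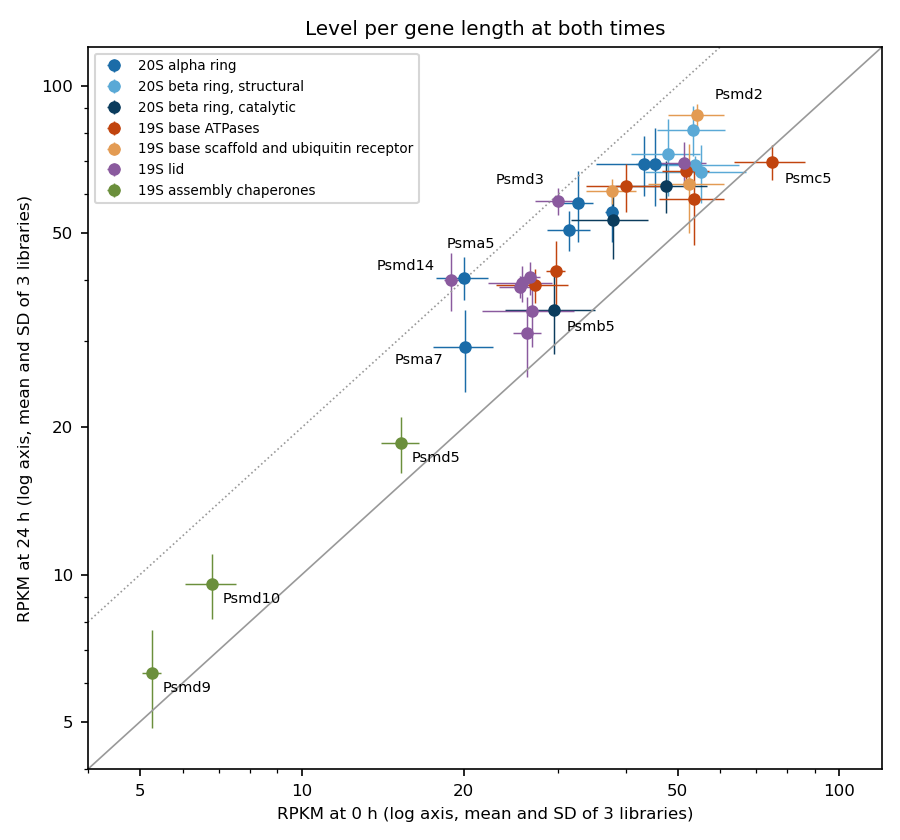
Mean level per length (deposited RPKM, log axes) of each tested proteasome subunit gene other than Psmb11 at 0 h and at 24 h. Means are of 3 libraries each, and the line of equal levels is drawn. Psmd14 and Psma5 go from the lowest levels of the particle, 18.98 and 19.996 RPKM, to 40.1 and 40.5 RPKM, and Psmc5 lies under the line.

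The 3 subunits left out by the rule replace the catalytic subunits in the immunoproteasome. Psmb8 had 2.20, 3.51 and 3.66 CPM at 0 h and 32.6, 16.4 and 14.5 CPM at 24 h (6.75-fold, 3.69 to 12.4, adjusted p = 0.00127), and Psmb10 had 6.71, 5.01 and 5.37 CPM at 0 h and 22.1, 15.9 and 18.0 CPM at 24 h (3.27-fold, adjusted p = 0.00127). Psmb9 was not called, at 1.303, 1.20 and 1.46 CPM at 0 h and 4.35, 4.99 and 1.90 CPM at 24 h (adjusted p = 0.0523). Per length, Psmb8 was 4.62%, 12.1% and 10.2% of its standard counterpart Psmb5 at 0 h and 91.7%, 41.7% and 29.5% at 24 h (exact two-sided permutation p = 0.1, the smallest that 3 against 3 libraries can give). Psmb10 was 8.34%, 9.93% and 9.43% of Psmb7 at 0 h and 31.4%, 20.7% and 21.5% at 24 h (exact p = 0.1), and Psmb9 was 3.31%, 4.46% and 5.14% of Psmb6 at 0 h and 11.4%, 10.8% and 4.8% at 24 h, which overlap (exact p = 0.2). These genes are also strongly expressed in leukocytes, and neutrophil markers were higher at 24 h too, as given further on. Within the 24 h libraries the neutrophil markers summed to 95.9, 129 and 183 CPM, highest in replicate 3. Psmb8 and Psmb10 were highest in replicate 1 and Psmb9 in replicate 2. The part of such cells in these 3 genes was not tested.

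The partners of the core were mixed. Of 5 activator and inhibitor genes, 2 rose (15.2% of all genes were called higher). Psme3, the nuclear activator PA28 gamma, had 96.0, 90.8 and 87.2 CPM at 0 h and 145, 169 and 135 CPM at 24 h (1.64-fold, 1.32 to 2.04, adjusted p = 0.00563). Psme2, a subunit of the interferon-inducible PA28 activator, rose from 23.3 ± 2.06 to 42.1 ± 6.02 CPM (SD, n = 3, 1.81-fold, adjusted p = 0.00521). Psme4, the activator PA200, had 157, 140 and 179 CPM at 0 h and 121, 117 and 172 CPM at 24 h, which overlap (fold 0.861, 0.643 to 1.15, adjusted p = 0.429).

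Of 5 assembly factors found, 1 rose (15.2% of all genes were called higher). Pomp, which guides the assembly of the inner ring, had 38.8, 27.2 and 30.02 CPM at 0 h and 40.8, 55.1 and 53.1 CPM at 24 h (1.55-fold, 1.16 to 2.08, adjusted p = 0.0335), and lost its call without replicate 2 or 3 of either time (0.0756 to 0.109). Psmg4 had a larger fitted log2 fold change of 0.77 but was not called (adjusted p = 0.138). Of 15 subunits and bound proteins with other names, 5 rose and 0 fell (15.2% and 13% of all genes). Usp14, a deubiquitinase that sits on the 19S particle, rose from 38.6 ± 3.96 to 64.5 ± 5.49 CPM (SD, n = 3, 1.67-fold, adjusted p = 0.00511). Zfand2a, a stress-induced protein that binds the proteasome, rose by 1.64-fold (adjusted p = 0.0111), and both kept their calls with any 1 library left out. Adrm1, Txnl1 and Rad23b rose by 1.52-fold, 1.47-fold and 1.46-fold (adjusted p = 0.0234, 0.021 and 0.0389). Each of these 3 lost its call without 0 h replicate 2 among others, over adjusted p of 0.0618 to 0.0825 for Adrm1 (without it or replicate 1 at 24 h), 0.0551 to 0.0735 for Txnl1 (without replicate 2 of either time or replicate 3 at 0 h) and 0.0623 to 0.127 for Rad23b (without replicate 2 or 3 of either time).

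The genes that govern proteasome transcription did not move as a block: of 12, 4 rose and 1 fell (15.2% and 13% of all genes). Their median log2 fold change was 0.05. Nfe2l1, which encodes NRF1, was flat at 358, 369 and 436 CPM at 0 h and 365, 356 and 409 CPM at 24 h (fold 0.972, 0.764 to 1.24, adjusted p = 0.872). NRF1 is known to be controlled mainly at the protein level, which these libraries did not measure. Nfe2l2, which encodes NRF2, rose from 49.6, 44.9 and 48.6 CPM to 62.7, 71.5 and 68.8 CPM (1.42-fold, 1.17 to 1.72, adjusted p = 0.0164, and 0.0624 without 0 h replicate 2). Maff, a small MAF partner of both factors, rose from 5.51, 7.31 and 4.76 CPM to 21.1, 50.8 and 21.6 CPM (5.29-fold, adjusted p = 0.00239), and Bach1, a repressor at the same sites, by 1.91-fold (adjusted p = 0.00611). Ngly1, the deglycosylase that NRF1 needs for activation, was the gene that fell, from 24.3, 23.7 and 22.9 CPM to 17.3, 14.8 and 17.2 CPM (log2 fold change -0.53, adjusted p = 0.0422). Its groups did not overlap, but the call was lost whichever library was left out (0.0755 to 0.113). Syvn1, a ubiquitin ligase of the endoplasmic reticulum, rose by 1.47-fold (adjusted p = 0.0264, and 0.0608 to 0.0776 without replicate 1 at 0 h or replicate 2 of either time).

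Upstream of the proteasome, Uba1, the main E1 enzyme that activates ubiquitin, had 374, 287 and 351 CPM at 0 h and 492, 527 and 561 CPM at 24 h. All 24 h libraries were higher, by 1.56-fold (adjusted p = 0.0183, and 0.0629 without 0 h replicate 2). Ubb, a ubiquitin gene, had 313, 210 and 227 CPM at 0 h and 181, 202 and 195 CPM at 24 h, all lower, but was not called (log2 fold change -0.38, adjusted p = 0.15).

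**Figure D5:**
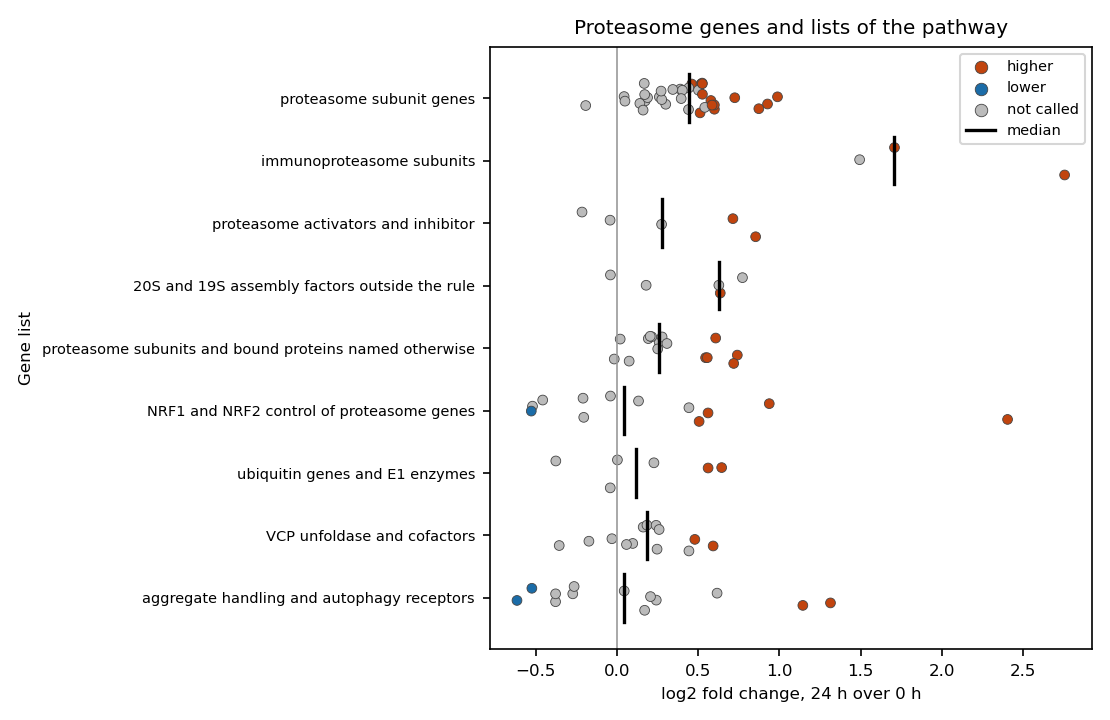
Fitted log2 fold change, 24 h over 0 h, of each tested gene in the proteasome subunit set and in 8 lists of related genes. The median of each list is a line. Genes called higher are red, genes called lower blue and genes not called grey. The subunit genes lie close together around 0.44, and the immunoproteasome genes stand far above them. Every other list holds genes on both sides of 0, with medians of 0.05 in the control list and 0.04 in the autophagy list.

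The libraries differed in other ways that run beside these results. Summed gene counts ranged from 8069314 to 10862573. The ribosomal precursor Rn45s took 15.4% of counts in 24 h replicate 1 and 2.44% to 5.04% in the others, and crystallins took 12.9% to 20.2% at 0 h and 6.93% to 8.73% at 24 h. The marker counts that follow stand beside 15.2% of all genes called higher and 13% called lower. Lens epithelium markers summed to 85381 to 144773 CPM at 0 h and 52840 to 66325 CPM at 24 h (5 of 8 lower, 0 higher). Most of these sums came from the crystallins Cryaa (means of 88070 and 46170 CPM) and Cryab (25173 and 11497 CPM). The next highest mean at 0 h was that of Pax6, at 455 CPM, so the sums mainly describe crystallin RNA. Fiber markers summed to 14211 to 23178 CPM at 0 h and 5722 to 6587 CPM at 24 h (8 of 9 lower). Neutrophil markers summed to 5.81 to 16.4 CPM and 95.9 to 183 CPM (6 of 6 tested higher, 10 listed), while the granule gene Elane was at 0 counts in every library and Mpo at 2 or fewer. Macrophage markers summed to 58.8 to 132 and 98.98 to 171 CPM (2 of 8 higher, 3 lower), and photoreceptor markers to 1910 to 5840 and 1018 to 4587 CPM (0 of 8 called). Ciliary and pigment epithelium markers (2 of 9 higher, 4 lower), corneal (2 of 4 higher, 1 lower) and endothelial markers (2 of 5 higher, 0 lower) were mixed, and the 1 erythroid gene tested was higher. The part of these cells, of fiber remnants and of Rn45s in the changes of the subunit genes was not tested. Without crystallins in the library totals, 9 members were called higher (25.7%, beside 13.2% of all genes). The 5 that then lost their call were Psma2, Psma4, Psma6, Psmb2 and Psmd7 (adjusted p = 0.0626 to 0.0791).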

How the data were processed

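RNA of 6 lens capsule libraries, 3 at 0 h and 3 at 24 h, was sequenced by the authors. Groups were taken from the sample titles. The submitters' processing notes name the mm10 build, HTSeq 0.6.1p1, TopHat2 2.1.0, Trim Galore 0.4.4, SAMtools 1.4, edgeR 3.16.5 and bedtools 2.17. The sources used here do not give the annotation or the strand setting of the counting, and the labels name both a stranded and an unspecified TruSeq kit. Whole-number counts of reads were deposited for each gene, per the file headers, with symbol, position and length. The deposited RPKM values, per the file headers, equal count over length and summed counts, and were used only to compare levels between genes.

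Genes passing filterByExpr (13956) were scaled by TMM and compared between the times, without a covariate, by the two-sided quasi-likelihood test of edgeR 4.0.16 in R 4.3.3, with Benjamini-Hochberg adjustment over all 13956 genes and a threshold of 0.05. Every adjusted p is from this test unless another tool is named. Fold changes are 24 h over 0 h. CPM values are TMM-scaled. The SE is the log2 fold change over the square root of the F statistic. Intervals are 95%. With summed counts of 8069314 to 10862573, a library's 3 counts are about the detection floor. The biological coefficient of variation was 25.09%. The procedure was run on simulated counts with less spread between libraries than these data and without a shared offset of a library. That run therefore does not measure how well small folds are called here.

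Alternatives were other scalings, filters, a 1.5-fold threshold, DESeq2 1.42.0, limma-voom (limma 3.58.1), a replicate block, and leaving out each library. With 1 library left out, a group had 2. Values in every library were given for the 2 members of each role with the lowest p, every tested member not called, the 2 genes of each related list with the lowest p, and a set of genes always named, of which 1 is not reported here. Other genes are examples chosen after their values were seen. Members and lists were chosen with earlier results of these data known. Promoters came from RefSeq (GRCm38.p6), without entries for Psma8, Psmb1, Psmb2, Psmb7, Psmc3, Psmd3 and Psmd7. Coordinates are as deposited, on mm10.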

Additional observations from a re-analysis of the deposited data

How the results depend on the processing

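The number of subunit genes called higher was 14 to 18 under the other scalings, filters and tools, with exceptions. It was 9 when crystallins were left out of the library totals and 1 against a 1.5-fold change, where 1689 genes were called in all in place of 3942. It ranged from 4 to 22 with 1 library left out, and the members' median log2 fold change from 0.34 to 0.61. The number called lower was 0 in all 16 alternatives. With library totals only, the median over all genes was 0.06, and without crystallins -0.07, beside medians of 0.53 and 0.39 for the members.

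Signs changed in 6 genes, all of them not called. With 1 library left out, log2 fold changes ranged from -0.10 to 0.077 for Nfe2l1, from -0.0095 to 0.43 for Psmb1, from -0.019 to 0.38 for Psmb5, from -0.27 to 0.51 for Psmb11, from -0.13 to 0.24 for Psmc3 and from -0.34 to 0.0081 for Psmc5. With library totals only, Nfe2l1 was at 0.040, and without crystallins Psmb11 was at -0.014 and Psmc3 at -0.0047. The cause was not tested.

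Same-numbered libraries of the 2 times deviated together with correlations of 0.0866, 0.2151 and 0.3965. For 24 h replicates 2 and 3 the same number was the best match, while 24 h replicate 1 correlated best with 0 h replicate 2 (0.1719). The labels do not say that the numbers pair, so pairing was used only as an alternative. With a replicate block, 16 members and 4489 genes in all were called. The number of libraries, 3 a group, limits the precision of every fold given.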

Other observations

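Genes that hand substrates to the proteasome or to autophagy were also read. Of 13 genes for the unfoldase VCP and its cofactors, 2 rose and 0 fell (15.2% and 13% of all genes). Their median log2 fold change was 0.18. Nsfl1c, the cofactor p47, rose by 1.51-fold (adjusted p = 0.0213, and 0.0533 to 0.0634 without 0 h replicate 2 or 24 h replicate 3), and Plaa by 1.39-fold (adjusted p = 0.0373, called only when 0 h replicate 1 was the library left out, with 0.0684 to 0.125 in the other 5 fits). Vcp itself was not called (1.36-fold, 1.03 to 1.80, adjusted p = 0.0983).

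Of 13 genes for aggregate handling and autophagy receptors, 2 rose and 2 fell (15.2% and 13% of all genes). Sqstm1, the receptor p62, which binds ubiquitinated cargo, had 259, 204 and 198 CPM at 0 h and 575, 644 and 422 CPM at 24 h (2.49-fold, 1.80 to 3.43, adjusted p = 0.00209). Bag3, a co-chaperone that routes clients to autophagy, rose from 31.2 ± 1.31 to 69.0 ± 6.23 CPM (SD, n = 3, 2.21-fold, adjusted p = 0.000518). Both folds were above those of the 35 tested members, which leave out the immunoproteasome subunits, and below those of Psmb8 and Psmb10, and both kept their calls with any 1 library left out. Calcoco1 and Optn, 2 other receptors, fell by 0.62 and 0.52 on the log2 scale (adjusted p = 0.0181 and 0.0397). Calcoco1 lost its call without 0 h replicate 1, 24 h replicate 1 or 24 h replicate 2 (0.0542 to 0.0573), and Optn kept its call only when 24 h replicate 2 was the library left out (0.0685 to 0.131 in the other 5 fits).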
